A study of Mus musculus with 4 samples.

Results

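Toll-like receptors are membrane proteins with which macrophages sense microbial products. In the resident macrophages of the mouse peritoneal cavity, the family examined here comprises 10 genes (*Tlr1* to *Tlr9* and *Tlr13*), listed by name, of which 9 had a row in the deposited table of 18364 genes. *Tlr6* had no row and was not analysed here. Bulk RNA came from large peritoneal macrophages (LPMs) of 8-week-old C57BL/6 mice, double-sorted as F4/80+ MHCII-negative CD102+ cells, with 2 libraries from wild type (WT) animals and 2 labelled Rxra-KO. *Rxra* encodes RXRα, a nuclear receptor that pairs with other receptors to regulate transcription. The study describes its Rxra-deficient animals as *Rxra* fl/fl mice carrying LysM Cre, which is active in myeloid cells and not in LPMs alone, and its controls as *Rxra* fl/fl littermates. The labels give only wild type and Rxra-/-. The labels do not say whether each library came from a separate mouse, so the spread between these libraries may be technical. The limma p-values and intervals given below rest mostly on a spread shared across genes of similar level, not on each gene's own libraries. That shared spread carried 227 prior against 2 residual degrees of freedom.

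All receptors of the family carry leucine-rich repeats that contact the ligand and a cytoplasmic domain that recruits adaptor proteins. TLR1, TLR2, TLR4, TLR5 and TLR6 act at the cell surface, where they detect lipopeptides, lipopolysaccharide and flagellin. TLR3, TLR7, TLR8, TLR9 and TLR13 act in endosomes and detect nucleic acids, which makes the sorting of cargo to endosomes part of their function. Most members signal through the adaptor MYD88, TLR3 signals through TRIF (the product of *Ticam1*), and TLR4 can use either.

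The WT libraries held 652542 and 947372 reads and the Rxra-KO libraries 629030 and 1047021, so each group had 1 shallow and 1 deeper library. Values are normalised read counts, scaled to a common depth, in which 1 read was worth 0.993 to 1.51. The targeted gene was not lower under its label. Reads of *Rxra* numbered 20 and 28 for WT but 33 and 77 for the libraries labelled Rxra-KO (limma adjusted *p* = 0.183), and every direction given here is therefore between libraries as labelled. This value covers the whole gene and not the floxed part alone, so it checks the deletion only in part. *Lyz2*, the LysM locus that carries Cre, stood at 14263 and 11591 for WT against 6386 and 6230 for Rxra-KO (limma adjusted *p* = 0.00163), a difference in the direction of the labels. The 6 markers of LPMs were all present, and *Gata6*, *Icam2*, *Adgre1* and *Itgam* were called lower in Rxra-KO. *Timd4* (log2 fold change -0.80, limma adjusted *p* = 0.157) and *Csf1r* (0.36, limma adjusted *p* = 0.620) were not called. For *Csf1r* the Rxra-KO libraries lay above the WT libraries. The 6 markers summed to 6990 and 7661 in WT against 3865 and 4634 in Rxra-KO. *Itgam* alone stood at 3624 and 4534 in WT against 1406 and 2102 in Rxra-KO. The 7 markers of small peritoneal macrophages (SPMs) and monocytes summed to 375 and 111 in WT and to 4266 and 5700 in Rxra-KO, with *Ccr2*, *Irf4*, *Mrc1*, *Retnla* and *Fcrls* called higher. *Cd226* and *Ly6c2* of this list were not called, on 1 to 3 and 0 to 5 reads per library, and *Ly6c2* had a log2 fold change of -0.78. Whether this shift in markers takes part in any receptor result was not tested, and in bulk RNA fewer cells of a type and less RNA per cell cannot be told apart.

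**Figure D1:**
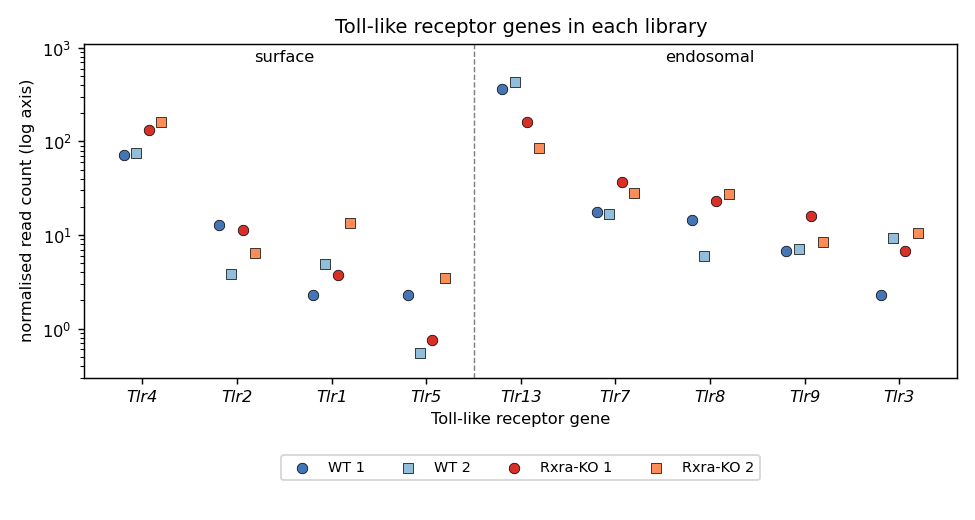
Normalised read count (log axis) of the 9 Toll-like receptor genes in each of the 4 libraries, with blue points for WT, red and orange points for Rxra-KO, and surface receptors left of the dashed line. *Tlr13* was the highest gene in both WT libraries, and its Rxra-KO points, at 160.3 and 85.9, lay below both WT points, whereas the Rxra-KO points of *Tlr4* lay above.

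*Tlr13* dominated the family in WT and was the member that fell. Its product is an endosomal receptor for bacterial ribosomal RNA that mice have and humans lack. *Tlr13* had a normalised read count of 363 and 433 in the WT libraries and of 160.3 and 85.9 in the Rxra-KO libraries, from 239, 399, 106 and 86 reads. The groups did not overlap, and the 2 Rxra-KO libraries differed from each other by more than the 2 WT libraries did in proportion. The WT mean was 398 ± 50.04 and the Rxra-KO mean 123 ± 52.6 (SD, n = 2). Fitted with limma on log2(value + 1) across all genes, a scale that understates the change of low genes, *Tlr13* changed by -1.75 on the log2 scale (standard error 0.25, 95% interval -2.24 to -1.26, limma adjusted *p* = 7.82e-09). It ranked 57 of 18364 genes by *p* value. By mean value it ranked 345 in WT and 1435 in Rxra-KO. Without Rxra-KO replicate 1 the log2 fold change was -2.19, and without Rxra-KO replicate 2 it was -1.30, and it was called when any single library was left out.

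*Tlr4* moved the other way. TLR4 is the receptor for bacterial lipopolysaccharide and binds it together with the product of *Ly96*. Its normalised read count was 71.9 and 75.4 in the WT libraries and 133 and 162 in the Rxra-KO libraries, from 47, 69, 88 and 163 reads. Both Rxra-KO libraries lay above both WT libraries, and the WT libraries were close to each other. The log2 fold change was 0.99 (standard error 0.28, 95% interval 0.43 to 1.55, limma adjusted *p* = 0.0287). This call needed all 4 libraries: the log2 fold change was 0.85 to 1.13 when any single library was left out, but limma then gave an adjusted *p* of 0.107 to 0.415. DESeq2 did not call it (adjusted *p* = 0.119), whereas edgeR did (adjusted *p* = 0.025).

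Of the 9 receptor genes, limma called 1 higher and 1 lower in Rxra-KO, with calls requiring adjusted *p* below 0.05 and a log2 fold change of 0.6 or more in size. Across all 18364 genes the same rule called 2.29%, with 1.32% higher and 0.969% lower. The 2 calls were 22.2% of the receptor genes, a share that was not tested. The groups did not overlap for 5 of the 9, against 38.1% of all genes.

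**Figure D2:**
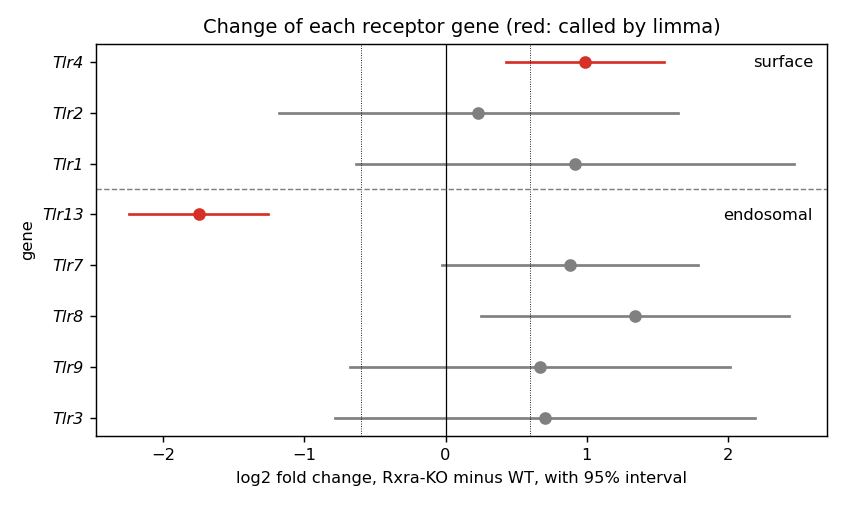
Log2 fold change of log2(value + 1), Rxra-KO minus WT, for the 8 receptor genes with more than 3 reads in any library, with bars for the 95% interval of limma, red for called genes and dotted lines at 0.6 in both directions. *Tlr13* lies left of 0 and the other 7 genes right of it, but of those 7 the intervals of *Tlr4* and *Tlr8* alone leave out 0.

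*Tlr7* and *Tlr8*, neighbouring genes on chromosome X with no other gene between them in RefSeq GRCm38.p6, encode endosomal receptors of the same branch. TLR7 detects single-stranded RNA. *Tlr7* had values of 17.4 and 16.8 in WT and 36.9 and 28.3 in Rxra-KO, from 11, 15, 24 and 28 reads. *Tlr8* had values of 14.4 and 5.97 in WT and 23.3 and 27.3 in Rxra-KO, from 9, 5, 15 and 27 reads. For both genes the Rxra-KO libraries lay above the WT libraries. Neither was called: the log2 fold change of *Tlr7* was 0.88 (95% interval -0.03 to 1.78, limma adjusted *p* = 0.515), and that of *Tlr8* was 1.34 (95% interval 0.25 to 2.43, limma adjusted *p* = 0.288). Without WT replicate 1 the value for *Tlr8* was 1.91 and without WT replicate 2 it was 0.77.

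*Tlr9* and *Tlr3* were near the limit of detection. TLR9 detects unmethylated CpG DNA and TLR3 detects double-stranded RNA. *Tlr9* had values of 6.81 and 7.05 in WT and 15.8 and 8.44 in Rxra-KO, which did not overlap but rested on 4 to 10 reads per library. *Tlr3* had values of 2.27 and 9.22 in WT and 6.78 and 10.4 in Rxra-KO, on 1 to 10 reads, and its groups overlapped. Their log2 fold changes were 0.67 and 0.71, with 95% intervals of -0.68 to 2.01 and -0.78 to 2.19 (limma adjusted *p* = 0.864 and 0.871). The value for *Tlr9* was 0.25 without Rxra-KO replicate 1 and 1.08 without Rxra-KO replicate 2. The sign for *Tlr3* turned to -0.12 without WT replicate 1, so no direction was detectable for it at this depth.

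The surface receptors other than *Tlr4* were scarce in these cells. TLR2 detects bacterial lipopeptides as a dimer with TLR1 or TLR6. *Tlr2* had values of 12.9 and 3.80 in WT and of 11.3 and 6.46 in Rxra-KO, from 8, 3, 7 and 6 reads, and the groups overlapped. Its log2 fold change of 0.23 (95% interval -1.18 to 1.64, limma adjusted *p* = 0.981) became -0.53 without WT replicate 2 and -0.13 without Rxra-KO replicate 1. *Tlr1* had values of 2.27 and 4.88 in WT and 3.76 and 13.4 in Rxra-KO, on 1, 4, 2 and 13 reads, where a single Rxra-KO library stood above the rest. Its log2 fold change was 0.92 (95% interval -0.63 to 2.47, limma adjusted *p* = 0.808). It was 0.12 without Rxra-KO replicate 2, 0.49 without WT replicate 1 and 1.72 without Rxra-KO replicate 1. For *Tlr5*, which encodes the receptor for flagellin, WT libraries held 1 and 0 reads and Rxra-KO libraries 0 and 3. Both groups were at or under 3 reads per library, taken here as the floor, and no fold is given for it.

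*Tlr1* and *Tlr6* are neighbours on chromosome 5 and close relatives that share part of their sequence. How reads from the shared part were assigned was not settled. Of the 2995 stretches of 31 bases in the longest coding transcript of *Tlr1* (GENCODE vM21), 603 (20.1%) also occur in transcripts of *Tlr6*, 31 being the default word length of Kallisto. For *Tlr6* itself, 17.2% of such stretches occur in another gene. The transcripts of the other 8 receptor genes shared 0 such stretches with any other gene.

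To compare levels between genes, values were divided by the length of the longest coding transcript of each, 3.01 to 4.41 kb. On this scale of normalised reads per kb, *Tlr13* stood at 98.0 ± 12.3 in WT (SD, n = 2), *Tlr4* at 18.1 ± 0.603, *Tlr7* at 4.39 ± 0.108, *Tlr8* at 2.97 ± 1.73 and *Tlr2* at 2.76 ± 2.13. The first 3 levels were separated beyond their spread, whereas *Tlr8*, at 4.19 and 1.74 in the WT libraries, was within 1 SD of both *Tlr7* and *Tlr2*. *Tlr9* (1.99 ± 0.0484), *Tlr3* (1.30 ± 1.12), *Tlr1* (1.18 ± 0.610) and *Tlr5* (0.368 ± 0.320) came last. In Rxra-KO the level per kb of *Tlr4* (36.3 ± 5.05) was above that of *Tlr13* (30.3 ± 13.0), but only in Rxra-KO replicate 2 was *Tlr4* the higher of the 2 genes, and they did not separate beyond their spread. *Tlr7* (8.36 ± 1.56) and *Tlr8* (7.38 ± 0.819) followed and overlapped, and the 5 remaining genes lay between 0.554 and 3.49. *Tlr5* was the lowest gene in 3 of the 4 libraries, the exception being WT replicate 1, where *Tlr3* was lower.

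**Figure D3:**
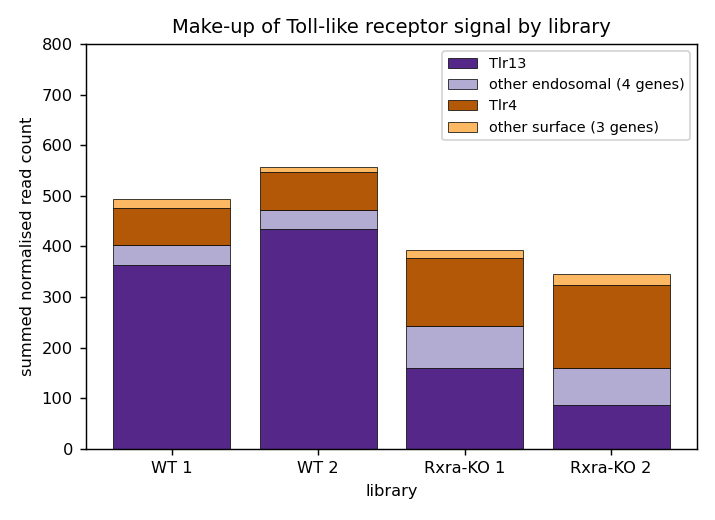
Summed normalised read count of the receptor genes in each library, stacked by *Tlr13*, the 4 other endosomal genes, *Tlr4* and the 3 other surface genes. The whole stack fell from 493 and 557 in WT to 392 and 346 in Rxra-KO, while the stack without *Tlr13* grew.

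Surface and endosomal receptors were then compared as classes. The surface genes summed to 89.3 and 84.6 in WT and to 149 and 186 in Rxra-KO, which is 1.92 times the WT mean. The endosomal genes summed to 403 and 472 in WT and to 243 and 160.4 in Rxra-KO, which is 0.461 times. This contrast between classes rested on *Tlr13*. The 4 other endosomal genes summed to 40.9 and 39.1 in WT and to 82.8 and 74.5 in Rxra-KO, 1.97 times the WT mean and close to the ratio of the surface genes. That surface ratio came largely from *Tlr4*. Without *Tlr4* the surface genes summed to 17.4 and 9.22 in WT and to 15.8 and 23.3 in Rxra-KO, which overlapped, at 1.47 times the WT mean. With *Tlr13* and *Tlr4* both left out, the remaining 7 genes summed to 58.3 and 48.3 in WT and to 98.6 and 97.8 in Rxra-KO.

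Gene by gene, the classes did not separate. The 3 surface genes above the floor had log2 fold changes of 0.23 to 0.99, with a median of 0.92 (0.62 with *Tlr5* included). Of the 5 endosomal genes, 4 had positive log2 fold changes and *Tlr13* had a negative one, with a median of 0.71, or 0.79 without *Tlr13*. The median of all 18364 genes was 0.02. In all, 7 of the 8 receptor genes above the floor had a positive log2 fold change, 6 of them without a call. Of all 15967 genes above the floor, 8229 had a positive log2 fold change.

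The make-up of receptor reads within each library gave the same contrast without depending on the scaling between libraries. *Tlr13* took 74.5% of the 321 receptor reads of WT replicate 1 (exact binomial 95% interval 69.3 to 79.1%) and 78.4% of the 509 reads of WT replicate 2 (74.6 to 81.9%). It took 41.4% of the 256 reads of Rxra-KO replicate 1 (35.3 to 47.7%) and 25.0% of the 344 reads of Rxra-KO replicate 2 (20.5 to 29.9%). *Tlr4* took 14.6% and 13.6% in WT and 34.4% and 47.4% in Rxra-KO. The intervals of the WT libraries did not meet those of the Rxra-KO libraries for either gene. The 2 Rxra-KO libraries also differed from each other in the share of *Tlr13*. These intervals treat reads as independent draws and leave out the spread between libraries. The reads carry no molecular identifiers, so amplified copies of the same molecule cannot be told apart and the intervals may be too narrow. Over the better-read genes, the mean squared difference between replicates was 3.77 (WT) and 3.58 (Rxra-KO) times that expected from counting. Shares add to a whole, so a fall of *Tlr13* raises the share of *Tlr4*, which is therefore not a separate result. Among reads other than those of *Tlr13*, *Tlr4* held 47 of 82 and 69 of 110 in WT. In Rxra-KO it held 88 of 150 and 163 of 258. Without *Tlr13*, endosomal genes took 30.5% and 30.9% of the remaining reads of the WT libraries, against 35.3% and 28.3% in Rxra-KO, with all 4 intervals overlapping. The ratio of *Tlr13* to *Tlr4* was 5.04 and 5.75 in WT and 1.20 and 0.529 in Rxra-KO.

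The sequence before the start of transcription was compared for endosomal members, since *Tlr13* fell while the others of its class had positive log2 fold changes. None of those others was called, so only *Tlr13* had a called direction. RefSeq windows of GRCm38.p6 were found for 8 of the 10 genes, *Tlr4* and *Tlr7* being the exceptions. The deposited table carries no coordinates. Shown are the 250 bases before the start of *Tlr13* (chrX:106143025-106143274, + strand), *Tlr8* (chrX:167264330-167264579, - strand) and *Tlr9* (chr9:106222348-106222597, + strand), each 5′ to 3′ on the strand of its gene. Capitals mark matches, on either strand, to the letters of 5 motifs, which are spelled out after the sequences.
*Tlr13*: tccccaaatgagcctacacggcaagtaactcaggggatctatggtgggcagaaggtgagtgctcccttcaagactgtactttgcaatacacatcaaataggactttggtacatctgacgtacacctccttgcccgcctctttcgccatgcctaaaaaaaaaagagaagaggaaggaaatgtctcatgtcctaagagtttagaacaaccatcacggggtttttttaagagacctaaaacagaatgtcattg
*Tlr8*: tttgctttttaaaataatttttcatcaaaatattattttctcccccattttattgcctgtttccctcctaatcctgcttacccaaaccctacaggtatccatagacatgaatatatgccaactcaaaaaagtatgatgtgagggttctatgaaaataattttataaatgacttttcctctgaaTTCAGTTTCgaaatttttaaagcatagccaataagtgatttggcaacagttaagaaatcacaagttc
*Tlr9*: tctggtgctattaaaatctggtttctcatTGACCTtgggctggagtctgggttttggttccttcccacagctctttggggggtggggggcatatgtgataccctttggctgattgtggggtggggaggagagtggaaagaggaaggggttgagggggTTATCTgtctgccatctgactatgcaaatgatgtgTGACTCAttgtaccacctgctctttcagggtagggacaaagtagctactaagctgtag

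The *Tlr13* window held 0 matches to the 5 sets of letters, the *Tlr8* window held 1, to the IRF pair, and the *Tlr9* window held 3, to the nuclear receptor, GATA and AP-1 motifs. The window of *Tlr3*, the other endosomal gene with an entry, held 1 match, to the GATA motif. It is not printed, since the sign of the *Tlr3* log2 fold change turned when WT replicate 1 was left out. *Tlr8* and *Tlr9* kept their sign but were not called either, so their windows do not stand for genes with an established rise. No matches shown overlapped. Shares of all 32851 RefSeq windows of the same length give the background. The core motif of ETS factors, GGAAGT, was found in 19.7% of windows. The nuclear receptor motif, AGGTCA, was found in 14.0%, and it also occurred before *Tlr2* and *Tlr5*. The letters of the GATA motif were AGATAA and these were found in 9.99% of windows. A pair of IRF elements, GAAANNGAA, occurred in 7.13% of windows. The AP-1 motif was spelled TGANTCA and occurred in 6.75%. A match describes letters in the window, not a bound site. The share of windows with 0 matches to all 5 motifs was not computed, so the absence of matches before *Tlr13* has no background to be read against.

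The rest of the pathway was examined with 72 genes in 7 lists, of which 68 had a row. Limma called 3 of the 68 (4.41%), against 2.29% of all genes, with 2 higher and 1 lower. The median log2 fold change of the 66 genes above the floor was 0.11. Among the 6 genes of the co-receptor list none was called. *Cd14*, which hands lipopolysaccharide to TLR4, stood at 124 ± 11.3 for WT and 187 ± 15.3 for Rxra-KO (SD, n = 2) and its log2 fold change was 0.59 (limma adjusted *p* = 0.348), and *Ly96* had 5, 8, 7 and 15 reads in the order WT replicate 1, WT replicate 2, Rxra-KO replicate 1 and Rxra-KO replicate 2. By normalised read count the Rxra-KO libraries lay above the WT libraries for *Cd14* and *Ly96*, as for *Tlr4*. *Cd180*, which encodes a surface relative of TLR4, had a fitted log2 difference of -0.73 (limma adjusted *p* = 0.607), and its partner *Ly86* had 20, 45, 16 and 61 reads in the same order (limma adjusted *p* = 0.998).

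**Figure D4:**
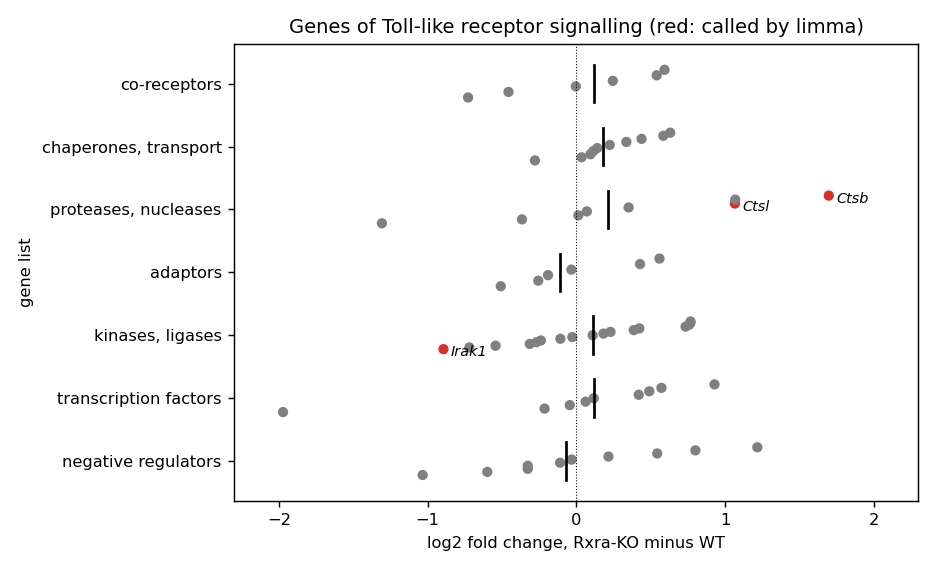
Log2 fold change, Rxra-KO minus WT, of 66 genes of Toll-like receptor signalling with more than 3 reads in any library, by list, with a black bar at each list's median and called genes in red. List medians lie between -0.11 and 0.21, and *Ctsb*, *Ctsl* and *Irak1* were called.

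Genes that fold, carry and cut endosomal receptors held both higher calls. *Unc93b1*, whose product escorts nucleic acid-sensing receptors to endosomes, stood at 53.1 ± 5.25 for WT and 80.0 ± 5.58 for Rxra-KO and its log2 fold change was 0.58 (limma adjusted *p* = 0.557). The ratio of *Tlr13* to *Unc93b1* was 6.39 and 8.78 in WT and 2.11 and 1.02 in Rxra-KO. The chaperone genes *Hsp90b1* and *Cnpy3* had log2 fold changes of 0.03 and 0.11, and none of the 10 chaperone and transport genes with a row was called. Among 9 proteases and nucleases, cathepsin genes *Ctsb* and *Ctsl* were called higher, with log2 fold changes of 1.70 and 1.07 (limma adjusted *p* = 5.39e-11 and 0.000192), while *Ctss* and *Lgmn*, which encode proteases that also cut endosomal receptors, had log2 fold changes of -0.37 and 0.35 (limma adjusted *p* = 0.623 and 0.936). The call of *Ctsl* was lost without Rxra-KO replicate 2.

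Downstream of the receptors, 1 gene was called. *Irak1*, which encodes a kinase recruited through MYD88, stood at 237 and 269.6 for WT and at 118 and 155 for Rxra-KO, from 156, 248, 78 and 156 reads, and its log2 fold change was -0.89 (limma adjusted *p* = 0.0246). The call of *Irak1* was lost under DESeq2 and without WT replicate 1, WT replicate 2 or Rxra-KO replicate 1. None of the 6 adaptor genes was called, and *Myd88* and *Ticam1* had log2 fold changes of -0.26 and -0.03 (limma adjusted *p* = 0.944 and 0.994). *Irak4*, *Traf6*, *Rela* and *Irf5* were not called either, with log2 fold changes of -0.11, -0.72, 0.42 and 0.12. Of 11 negative regulators with a row none was called. *Tollip*, which encodes an inhibitor of the kinase IRAK1, had a log2 fold change of 1.22 and *Irak3*, which encodes a kinase-dead relative, one of 0.80 (limma adjusted *p* = 0.258 and 0.753), on 5 to 27 reads per library.

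Other cells that carry Toll-like receptors could add reads, and their markers were given the same count. The 4 markers of B cells with a row summed to 10.6 and 17.4 in WT and to 22.6 and 14.9 in Rxra-KO, with *Cd79a* and *Cd79b* at or under 3 reads in every library and no row for *Pax5* and *Ighm*. The 2 markers of plasmacytoid dendritic cells with a row summed to 45.4 and 39.1 in WT and to 37.6 and 26.8 in Rxra-KO. The 5 markers of conventional dendritic cells summed to 44.7 and 43.9 in WT and to 94.1 and 112 in Rxra-KO. Most of that rise came from *Cd209a*, which was called higher, with a mean of 18.3 in WT and 72.7 in Rxra-KO. The others were not called and did not share a direction. *Flt3*, *Zbtb46* and *Clec9a* had log2 fold changes of 1.18, 0.35 and -0.85, on 1 to 10 reads per library. *Xcr1* had 10, 8, 8 and 13 reads and a log2 fold change of 0.10. Over the 4 libraries the sums were 92.2 to 106 for 2 neutrophil markers, 29.3 to 48.9 for 3 markers of T and natural killer cells, 12.4 to 15.9 for 3 mast cell markers and 5.30 to 24.3 for 3 mesothelial markers. None of these was called, and *S100a8*, *S100a9* and *Ly6g* of the neutrophil list had no row. The part of these cells in the receptor values was not tested.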

How the data were processed

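Large peritoneal macrophage RNA from 2 WT and 2 Rxra-KO libraries was amplified by the authors as SMART-Seq v4 cDNA and sequenced on a NextSeq-500. Per the study's methods, transcripts were quantified with Kallisto (version 0.43.0) against a human reference, GRCh38, summarised with tximport, filtered for low values and compared with limma after TMM scaling. GRCh38 is a human build, while the gene names are mouse and include *Tlr13*, which humans lack. Which mouse reference was used was not settled. The study excluded RNA-seq samples that did not cluster with their group.

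The deposited values form a normalised read signal, each being equal to (reads + 0.5) times a fixed step of its library. Whole reads were recovered for 100% of values (tolerance 0.01 reads), and 3 reads in every library of both groups was taken as the floor. Genes were fitted with limma (version 3.58.1, R 4.3.3) on log2(value + 1) with a mean-variance trend, on all 4 libraries and with no covariate. All *p* values are two-sided and were adjusted over 18364 genes (Benjamini-Hochberg). Requiring a value of 1 in 2 or more libraries removed no gene. The spread shared across genes carried 227 prior against 2 residual degrees of freedom, and an exact permutation test of 2 against 2 libraries cannot go below *p* = 0.333. The same steps were run on simulated data in which only well-read genes were changed. That run does not cover genes with as few reads as most of the receptors here.

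Alternatives were other pseudocounts, a stricter filter, other scalings, edgeR (version 4.0.16) and DESeq2 (version 1.42.0) on recovered reads, limma without a trend, each library left out and a replicate block. The receptors were listed by name, and they and the pathway lists were chosen with earlier results of these data known. All receptors, preset lead genes of each list and all called genes of the pathway and marker lists are named. *Xcr1*, *Clec9a*, *Flt3*, *Zbtb46*, *Timd4*, *Csf1r*, *Cd226*, *Ly6c2* and the markers printed without a row were named after seeing the values. All of them belonged to the marker lists. Transcript lengths came from GENCODE vM21 and promoter windows from RefSeq. *Tasl*, *Rnaset2a*, *Sigirr* and *Socs1* found no row under those names.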

Additional observations from a re-analysis of the deposited data

How the results depend on the processing

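*Tlr13* was called under 12 of 13 alternatives, with log2 fold changes of -2.19 to -1.30, the exception being limma without a mean-variance trend. That fit called 0 receptor genes, 0 pathway genes and 0 genes in all, with 1579 genes and 3 receptor genes at an unadjusted *p* under 0.05. Its limma adjusted *p* was 0.486 for *Tlr13* and 0.579 for *Tlr4*, so the calls of both depend on the shared trend. *Tlr4* was called under 7 of 13 alternatives. DESeq2 called 1 receptor gene, *Tlr13*, and 246 genes in all against 421, with an adjusted *p* for 5547 genes. With any single library left out, 1 receptor gene was called, always *Tlr13*, and 236 to 377 genes in all. The surface median was 1.10 with edgeR and 1.04 with DESeq2, and 0.36 to 1.06 with single libraries left out, when the endosomal median was 0.65 to 1.06. The log2 fold change of *Tlr2* then ranged from -0.53 to 0.997 and that of *Tlr3* from -0.12 to 1.53. The causes were not tested, beyond the smaller number of libraries. Other pseudocounts, scalings and the stricter filter changed no call among the receptors, though the filter at 10 removed *Tlr1*, *Tlr3*, *Tlr5* and *Tlr9*.

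Replicates 1 and 2 of the 2 groups shared only a number, with a correlation of 0.0635 between their deviations across genes. With the replicate block limma called 540 genes, the 421 among them, and the same 2 receptor genes, and it added *Rab11a* to the pathway calls. The filter on low values removed no gene, so a fit without it was not run. *Tlr1*, *Tlr2*, *Tlr3* and *Tlr9* had 1 to 13 reads per library and 95% intervals that contained 0, so a change in them was not detectable at this depth.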

Other observations

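Mice have 2 further Toll-like receptor genes outside the list examined here, *Tlr11* and *Tlr12*, whose products detect profilin of protozoan parasites. Reads of *Tlr11* numbered 3 and 2 for WT, 0 and 6 for the libraries labelled Rxra-KO. Reads of *Tlr12* numbered 2 and 4 for WT, 3 and 13 for Rxra-KO. Neither was called by limma (adjusted *p* = 0.954 and 0.821). In Rxra-KO replicate 2 the reads of *Tlr12* equalled those of *Tlr1*, at 13.

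*Irf7*, a transcription factor downstream of the endosomal receptors, was seen in 4 and 16 reads for WT, 0 and 4 for Rxra-KO, and its normalised read counts of 6.81 and 17.9 against 0.753 and 4.47 did not overlap. Its log2 fold change was -1.97 (limma adjusted *p* = 0.258). *Nfkbia*, which encodes an inhibitor of NF-κB, was seen in 28 and 44 reads for WT, 13 and 23 for Rxra-KO, and its log2 fold change was -1.03 (limma adjusted *p* = 0.252). Both were picked after their values were seen, and neither passed the test.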
